A study of Mus musculus with 8 samples.

Results

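Gene expression in cells carrying delFG1, a deletion mutant of the leukaemia fusion NUP98-HOXA9, was set against that in cells carrying an empty vector. The comparison took the arrays labelled delFG1 no1 and no2 and the arrays labelled empty vector no1 and no2, which are 4 of the 8 arrays of the series, with 2 in each group. The other arrays carried the full-length fusion or a second deletion mutant, delFG2, and entered the fit so that all 4 groups shared the estimate of the spread. The RNA came from mouse cells, strain C57BL/6. The labels name no further allele, agent, time or age for any group. They give neither the cell type nor the species of the fusion cDNA, nor the residues missing in each mutant. Per the design text, the purpose was to find genes whose regulation by the fusion needs the NUP98 moiety.

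NUP98 is a nucleoporin whose amino-terminal part carries many phenylalanine-glycine (FG) repeats, and in NUP98-HOXA9 that part is joined to the homeodomain of HOXA9, which binds DNA. HOX proteins of the A cluster are transcription factors that are active in blood progenitors and fall silent as myeloid cells mature, and they bind DNA together with the TALE homeodomain proteins PBX and MEIS. Fusions of this kind are found in acute myeloid leukaemia, where the FG repeats recruit coactivators and chromatin proteins and the Hoxa genes stay on.

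Each measurement is the intensity of a probe set, a group of array probes for 1 transcript region, on a linear scale, and differences are given as delFG1 minus empty vector on the log2(intensity + 1) scale. Median intensity was 80.7 to 83.2 over the 8 arrays. The delFG1 arrays correlated with r = 0.996 across genes and typically differed by 0.10 on the log2 scale. The delFG1 array numbered 2 was closer still to the full-length array numbered 2, with r = 0.999 and a typical difference of 0.06. Some blood cell markers were bright and others were not. Ptprc, the pan-leukocyte phosphatase CD45, read 1315 and 1454 with delFG1, against 1601 and 1751 with the empty vector. Mpo, Elane, Lyz2 and S100a8 of the myeloid lineage were among the brightest, with a lowest percentile of 98.2 on the 4 arrays. The B cell marker Cd79a (at most 31.9 on the 4 arrays), the T cell markers Cd3e and Cd8a and the endothelial marker Cdh5 lay between percentiles 15.4 and 44.3. The progenitor marker Flt3 lay between percentiles 32.0 and 45.7, and the erythroid marker Klf1 between 56.9 and 58.4. The stromal markers Col1a1 and Col3a1 lay between percentiles 52.3 and 57.3.

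In the fit that paired arrays by the number in their labels, more probe sets were called lower than higher with delFG1. At an adjusted p under 0.05 in limma, 422 of 21789 probe sets were higher with delFG1 than with the empty vector (1.94%) and 911 were lower (4.18%), together 6.12%. By gene, taking the brightest probe set, 365 of 19938 rose (1.83%) and 870 fell (4.36%). Most differences were small: the median was 0.44 for probe sets that rose and -0.54 for those that fell, and 36 rose and 88 fell by at least 2-fold. The arrays of the groups did not overlap for 415 of the 422 that rose and 826 of the 911 that fell, where over all genes 24.4% were higher and 16.2% lower without overlap. Over all genes, called or not, 7379 were higher and 5050 lower in both pairs, so the excess of falls holds for the calls of the paired fit and not for all differences. All 1333 called probe sets differed in the same direction in both pairs of arrays, as the plot of both pairs shows. The calls were made on these same arrays, so this agreement and the lack of overlap are no separate check of them.

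**Figure D1:**
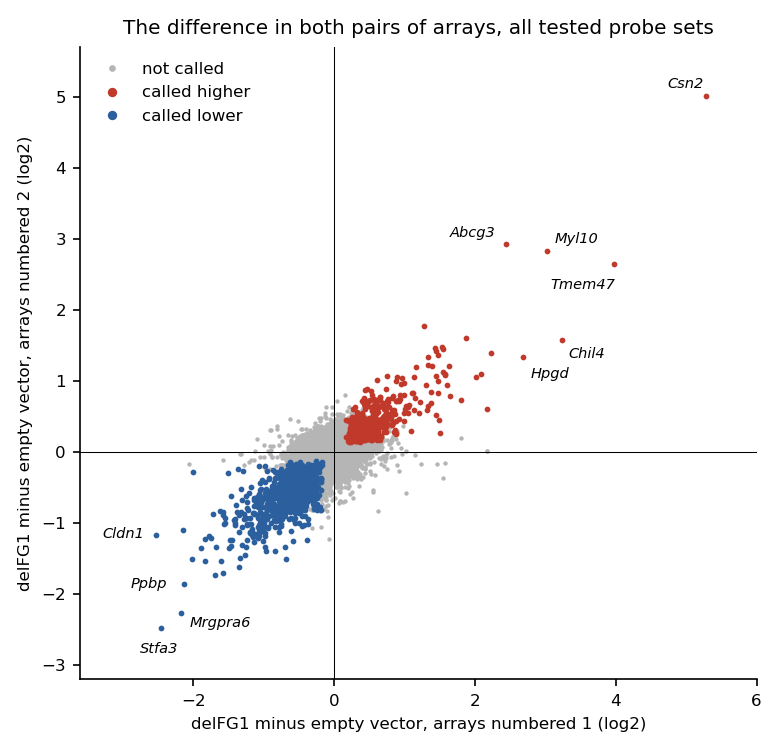
Difference between delFG1 and empty vector (log2) for the arrays numbered 1 (x axis) and numbered 2 (y axis), with 1 point for each of the 21789 tested probe sets. All 422 called rises (red) are positive and all 911 called falls (blue) negative in both pairs, and Csn2 stands farthest out.

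The number of calls rested on the pairing. The same-numbered delFG1 and empty vector arrays deviated together from their group means (r = 0.475 across probe sets), and without the number as a block 19 probe sets were called higher and 9 lower, all of them also called with it. The balance of rises and falls thus turned with the pairing. In what follows the adjusted p is that of the paired fit, with that of the unpaired fit beside it for the genes described most fully. List counts from fits with 1 array left out are to be read beside the counts over all probe sets in the same fits. Both of those counts were smaller without either delFG1 array and larger without the empty vector array 2. Of the 134 named genes called in the paired fit, 117 were not called in the unpaired fit. The count of rises was 97 without the delFG1 array 1, 166 without the delFG1 array 2, 231 without the empty vector array 1 and 950 without the empty vector array 2. The count of falls was 390 without the delFG1 array 1 and 485 without the delFG1 array 2. Among the 134 named genes that passed, 80 passed again in all 4 fits that left out 1 of the arrays compared.

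The endogenous genes from which the fusion is named gave no check of the construct, since which transcript each probe set reads is not known here. Nup98 read 2103 and 1989.8 with delFG1, against 2174 and 1807 with the empty vector, a difference of 0.05 with a 95% interval of -0.10 to 0.19 (adjusted p = 0.807). The groups overlapped for Nup98. Hoxa9 read 337 and 243 with delFG1, against 187 and 161 with the empty vector, a rise of 0.72 ± 0.13 (SE; adjusted p = 0.00661, and 0.263 in the unpaired fit). Hoxa9 was higher on both delFG1 arrays than on either empty vector array, and its call was lost without the delFG1 array 1.

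The Hoxa cluster had the largest share of rises among the 32 gene lists, at 50% against 1.83% of all genes. Of its 10 measured genes 5 rose and 0 fell (3 rose without the delFG1 array 1), and 9 were higher in both pairs of arrays. Over all 19938 genes, 7379 were higher in both pairs. The 5 Hoxa genes that rose include Hoxa9, and which transcript its probe set reads is not known here. The median difference of the 10 Hoxa genes was 0.43, against 0.02 over all genes. Hoxa5, Hoxa6 and Hoxa7 stand side by side in the cluster on mouse chromosome 6. Their promoter windows are shown because these genes rose together and kept the call without pairing. Each runs from 250 bases before to 50 bases after the RefSeq start in GRCm38.p6, 5′ to 3′ on the gene's own strand, with CG dinucleotides, the substrate of DNA methylation, in capitals.
Hoxa5, chr6:52204538-52204837, minus strand: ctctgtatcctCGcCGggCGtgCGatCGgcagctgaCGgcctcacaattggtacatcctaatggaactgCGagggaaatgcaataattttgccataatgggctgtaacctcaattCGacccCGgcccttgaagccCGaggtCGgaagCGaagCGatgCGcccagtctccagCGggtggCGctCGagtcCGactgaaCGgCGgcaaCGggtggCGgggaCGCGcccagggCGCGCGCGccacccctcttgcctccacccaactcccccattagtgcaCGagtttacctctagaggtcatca
Hoxa6, chr6:52208623-52208922, minus strand: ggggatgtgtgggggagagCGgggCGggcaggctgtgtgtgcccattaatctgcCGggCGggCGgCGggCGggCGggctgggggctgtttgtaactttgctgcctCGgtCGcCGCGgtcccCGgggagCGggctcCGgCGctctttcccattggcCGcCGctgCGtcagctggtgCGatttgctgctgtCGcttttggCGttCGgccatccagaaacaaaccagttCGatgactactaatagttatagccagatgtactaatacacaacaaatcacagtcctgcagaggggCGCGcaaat
Hoxa7, chr6:52218524-52218823, minus strand: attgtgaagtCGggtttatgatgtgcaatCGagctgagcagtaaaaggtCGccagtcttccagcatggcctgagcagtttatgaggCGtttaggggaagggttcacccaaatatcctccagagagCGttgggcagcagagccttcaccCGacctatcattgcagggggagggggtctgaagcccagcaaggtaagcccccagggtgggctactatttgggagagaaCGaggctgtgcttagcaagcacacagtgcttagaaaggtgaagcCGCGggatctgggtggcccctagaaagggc
The windows of Hoxa5 and Hoxa6 hold 29 and 26 CG dinucleotides and that of Hoxa7 holds 9. The median is 15 over the 19116 windows of tested genes. It is 16 over the windows of genes that rose and 12 over those of genes that fell. In the same cluster the windows of Hoxa3 and Hoxa9, which rose, hold 20 and 4. Those of Hoxa2, Hoxa11 and Hoxa13, which did not pass, hold 9, 15 and 45, and those of Hoxa10 hold 12 and 21. DNA methylation was not measured here.

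Hoxa6 had the largest rise of the cluster, with 247 and 206 with delFG1, against 90.2 and 76.7 with the empty vector. The difference was 1.43 ± 0.16, or 2.7-fold (adjusted p = 0.00053, and 0.0318 in the unpaired fit). Both delFG1 arrays lay above both empty vector arrays by more than the gap within either group. Hoxa5 read 125 and 109 with delFG1, against 49.0 and 43.0 with the empty vector, a rise of 1.33 ± 0.13 (adjusted p = 0.000184, unpaired 0.0207). Hoxa7 read 331 and 256 with delFG1, against 109.9 and 121 with the empty vector, a rise of 1.33 ± 0.13 (adjusted p = 0.000237, unpaired 0.0298). These 3 genes passed in both fits and in every fit with 1 array left out. Hoxa3, towards the 3′ end of the cluster, read 85.9 and 78.7 with delFG1, against 44.5 and 46.8 with the empty vector, a rise of 0.84 ± 0.16 (adjusted p = 0.01, unpaired 0.138). Its call was lost without the delFG1 array 1 or the empty vector array 1.

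The rest of the cluster moved little. Hoxa2, Hoxa4, Hoxa10, Hoxa11 and Hoxa13 differed by 0.15, 0.12, 0.12, 0.04 and 0.10, and none passed. Hoxa10, which lies next to Hoxa9 in the cluster, read 65.9 and 64.8 with delFG1, against 59.0 and 60.7 with the empty vector, with a 95% interval of the difference of -0.09 to 0.34. The plot of the cluster shows rises for Hoxa3, Hoxa5, Hoxa6, Hoxa7 and Hoxa9. Hoxa4, which lies between them, and the genes at both ends lie at or under 0.15. In the Hoxb, Hoxc and Hoxd clusters 1 of 27 measured genes rose and 0 fell: Hoxc6 read 56.8 and 49.2 with delFG1, against 36.5 and 39.8 with the empty vector (a rise of 0.46, adjusted p = 0.0166, unpaired 0.172), and its call was lost without the delFG1 array 1 or the empty vector array 1. Hoxb3 and Hoxb4, which act in blood stem cells, differed by 0.26 and 0.29 and did not pass. In these clusters 3.70% of genes rose, where 1.83% of all genes did.

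**Figure D2:**
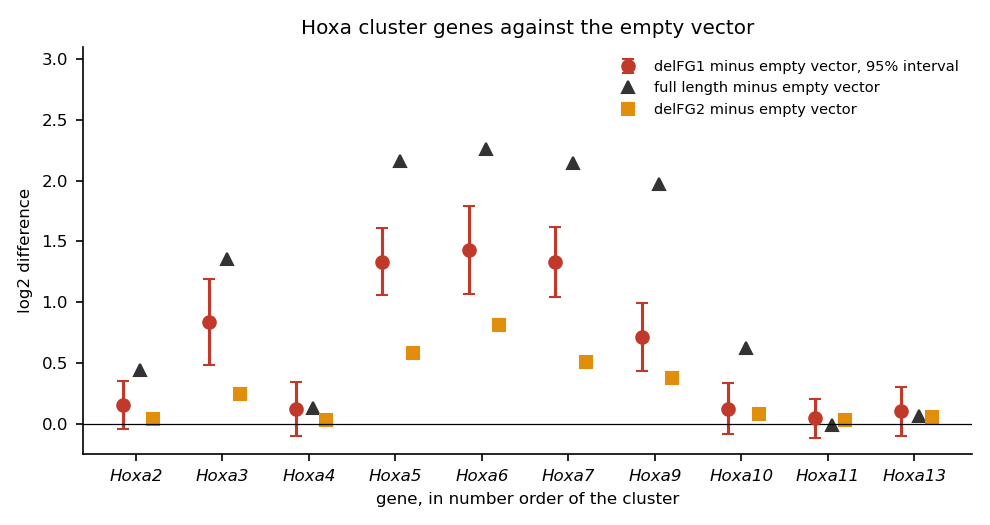
Log2 difference from the empty vector for the 10 measured Hoxa genes, in the number order of the cluster (x axis). Circles with 95% intervals are delFG1, triangles the full-length fusion and squares delFG2, all against the same empty vector arrays. For delFG1 the 5 genes that passed run from 0.72 (Hoxa9) to 1.43 (Hoxa6), and the other 5 lie at or under 0.15. Which transcript the Hoxa9 probe set reads is not known here.

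The DNA-binding partners of HOX proteins did not rise with the Hoxa genes. For the counts that follow, 1.83% of all genes rose and 4.36% fell. Of 10 measured TALE homeobox genes 0 rose and 1 fell, Pknox2 (a difference of -0.55, adjusted p = 0.0196, unpaired 0.45), whose call was lost without either delFG1 array or the empty vector array 1. Pbx3 read 431 and 447 with delFG1, against 428 and 399.9 with the empty vector, a difference of 0.08 with a 95% interval of -0.15 to 0.32. Meis1 read 121 and 93.7 with delFG1, against 129 and 91.7 with the empty vector, a difference of -0.03 with an interval of -0.25 to 0.20. A 2-fold change lies outside both intervals. Pknox1 differed by 0.42 (adjusted p = 0.0516) and Tgif1 by -0.34 (adjusted p = 0.0569), and neither passed. In the network of Eya and Dach genes and their homeodomain partners, transcriptional coregulators, 0 of 11 measured genes passed in either direction. Its best known member in this setting, the phosphatase and coactivator Eya1, read 68.7 and 73.4 with delFG1, against 85.1 and 107 with the empty vector, a difference of -0.42 (adjusted p = 0.0609). Both delFG1 arrays were lower than both empty vector arrays for Eya1, and the difference did not pass. Dach1 differed by 0.33 (adjusted p = 0.129).

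Among 26 regulators linked to self-renewal in leukaemia, 5 rose (19.2%) and 3 fell (11.5%), against 1.83% and 4.36% of all genes. Tox, an HMG-box nuclear protein first studied in developing T cells, had the largest rise, with 622 and 519 with delFG1, against 212 and 189.7 with the empty vector. It rose by 1.499 ± 0.12 (adjusted p = 7.67e-05, unpaired 0.0207), and was the 1 member called in both fits. Mycn, a MYC family transcription factor, read 144 and 134 with delFG1, against 94.6 and 107 with the empty vector (a rise of 0.47, adjusted p = 0.0269, unpaired 0.19), and the survival factor Bcl2 read 757 and 691 with delFG1, against 629 and 502 with the empty vector (a rise of 0.36, adjusted p = 0.0272, unpaired 0.524). Myb and Lyl1, transcription factors of progenitors, rose by 0.31 and 0.34. Each rise but that of Tox was modest, and the count of rises was 1 without either delFG1 array and 3 without the empty vector array 2. Id2, a dominant-negative partner of E proteins, fell by 0.65 ± 0.07 with 1981 and 3171 with delFG1, against 3338 and 4617 with the empty vector (adjusted p = 0.000265, unpaired 0.499). Mef2a fell by 0.62 (adjusted p = 0.000779, unpaired 0.179) and Gfi1b fell by 0.53 (adjusted p = 0.0132, unpaired 0.225). Mef2c read 427 and 357 with delFG1, against 373 and 271 with the empty vector, a difference of 0.30 with an interval of 0.06 to 0.53 (adjusted p = 0.152). Myc, Cdk6 and Mecom differed by 0.21, 0.21 and -0.13, and none passed. For Mecom a dimmer probe set had the opposite sign, at 0.10.

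Surface genes of stem and progenitor cells were split, with 15.8% of the measured members higher and 5.26% lower (1.83% and 4.36% of all genes). Cd34, a sialomucin of progenitors, read 1619 and 1186 with delFG1, against 1140.1 and 718 with the empty vector (a rise of 0.61 ± 0.08, adjusted p = 0.00117, unpaired 0.501). Cd27, a costimulatory receptor of the TNF receptor family, read 178 and 121 with delFG1, against 65.0 and 43.5 with the empty vector, a rise of 1.45 ± 0.14 (adjusted p = 0.000187, unpaired 0.0806). For both genes the arrays numbered 1 were the brighter of each group, and the groups did not overlap. Emcn was the third of the 19 measured members to rise, by 0.41, at low intensity, and its call was lost without the delFG1 array 1 or the empty vector array 1. Calcrl, the receptor subunit for adrenomedullin and CGRP, fell by 0.89 ± 0.11 with 235 and 246 with delFG1, against 474 and 421 with the empty vector (adjusted p = 0.000926, unpaired 0.0576). Kit and Flt3, growth factor receptors of progenitors, differed by -0.06 and 0.20 (adjusted p = 0.877 and 0.539), and their groups overlapped.

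The largest rise of all was that of a milk protein gene. Csn2, which encodes beta-casein, read 4174 and 4839 with delFG1, against 106 and 149 with the empty vector. The difference was 5.15 ± 0.21, or 35.5-fold (adjusted p = 2.29e-06, unpaired 0.00202). Both delFG1 arrays sat among the bright genes of the array and both empty vector arrays within 2-fold of its median. In the mammary gland, beta-casein transcription is a textbook response to prolactin through STAT5. Of the 6 measured genes of the casein cluster 2 rose and 0 fell: besides Csn2, its neighbour Csn1s1, alpha-casein, read 33.7 and 34.0 with delFG1, against 25.3 and 28.5 with the empty vector (a rise of 0.32, adjusted p = 0.0312, unpaired 0.184). That rise was small, at the dim end of the scale, and was lost without either delFG1 array or the empty vector array 1. Csn1s2a differed by 0.43 (adjusted p = 0.0626) and Odam by 0.03, while Csn1s2b and Csn3 differed by 0.01 each, so within the cluster the large change lay at Csn2.

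The promoter windows of the casein genes that rose are shown because their RefSeq windows each hold a match to the STAT letters TTCNNNGAA, given in capitals, searched on both strands.
Csn2, chr5:87699376-87699675, minus strand: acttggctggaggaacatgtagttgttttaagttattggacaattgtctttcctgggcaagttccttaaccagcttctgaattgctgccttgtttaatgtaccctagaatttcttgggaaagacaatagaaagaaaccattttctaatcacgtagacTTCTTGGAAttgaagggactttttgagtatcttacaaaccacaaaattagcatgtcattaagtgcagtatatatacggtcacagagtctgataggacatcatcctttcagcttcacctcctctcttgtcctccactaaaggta
Csn1s1, chr5:87665958-87666257, plus strand: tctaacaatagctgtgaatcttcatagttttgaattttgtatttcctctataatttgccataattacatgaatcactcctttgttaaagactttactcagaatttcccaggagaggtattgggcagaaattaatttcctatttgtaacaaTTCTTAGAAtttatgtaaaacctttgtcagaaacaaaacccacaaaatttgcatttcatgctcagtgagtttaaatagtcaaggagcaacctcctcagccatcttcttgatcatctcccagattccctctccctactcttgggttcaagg
The match lies 93 to 85 bases before the start of Csn2 and 100 to 92 bases before that of Csn1s1. Such a match stood in 8.30% of all 32851 promoter windows and 7.68% of the 19116 windows of tested genes, in 9.19% of the windows of genes that rose and in 7.42% of those of genes that fell. The letters are found alike in a casein gene that rose 35.5-fold, in one that rose 1.25-fold and in the window of Csn1s2a, which did not pass.

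Other large rises spanned unrelated functions. Tmem47, a membrane protein of cell junctions, read 635 and 255 with delFG1, against 39.5 and 39.98 with the empty vector, a rise of 3.31 ± 0.30 (adjusted p = 0.000159, unpaired 0.0657). Myl10, a myosin regulatory light chain, read 1291 and 1073 with delFG1, against 157 and 149.7 with the empty vector, a rise of 2.93 ± 0.18 (adjusted p = 2.33e-05, unpaired 0.00715). Abcg3, an ATP-binding cassette transporter of rodents, read 268 and 338 with delFG1, against 48.3 and 43.7 with the empty vector, a rise of 2.69 ± 0.19 (adjusted p = 3.1e-05, unpaired 0.00715). Myl10 and Abcg3 were even between the delFG1 arrays, while Tmem47 was more than 2-fold brighter on delFG1 array 1. Chil4, a chitinase-like protein, showed the same unevenness, with 466 and 144 with delFG1, against 48.8 and 47.9 with the empty vector. Its rise of 2.40 ± 0.37 (adjusted p = 0.00277, unpaired 0.104) was 1.49 without the delFG1 array 1 and 3.31 without the delFG1 array 2. Chil4 is nearly identical in sequence to Chil3, so the probe sets may share signal, and Chil3 moved the other way.

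Hpgd, the dehydrogenase that inactivates prostaglandins, read 272 and 115 with delFG1, against 41.4 and 45.1 with the empty vector, a rise of 2.01 ± 0.24 (adjusted p = 0.000691, unpaired 0.171; 1.45 without the empty vector array 1 and 2.57 without the empty vector array 2). Gstt1, a glutathione transferase, rose by 1.81, Vcam1, an adhesion molecule bound by leukocyte integrins, by 1.59, and H2-Ob, a modulator of peptide loading on MHC class II, by 1.53. Each of these was likewise higher on delFG1 array 1, and none passed in the unpaired fit. Mansc1 read 752 and 753 with delFG1, against 205 and 247 with the empty vector (a rise of 1.74 ± 0.20, adjusted p = 0.000537, unpaired 0.0318). Ccr4, the receptor of the chemokines CCL17 and CCL22, read 233 and 306 with delFG1, against 95.8 and 88.7 with the empty vector (a rise of 1.52 ± 0.14, adjusted p = 0.000139, unpaired 0.0259). B4galt4, a galactosyltransferase, read 689 and 649 with delFG1, against 238 and 233 with the empty vector (a rise of 1.501 ± 0.14, adjusted p = 0.000159, unpaired 0.0298). Unlike the genes above, these 3 passed with and without pairing. Of the 15 largest rises, 8 were called in the unpaired fit as well. The 15 were picked among the calls on these same arrays, so this is no separate check of them.

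Smaller rises that also passed without pairing, chosen after their values were seen, included genes of the cell surface and of the cytoskeleton. Rhoj, a small GTPase of the CDC42 family, read 2249.9 and 1965 with delFG1, against 807 and 760.3 with the empty vector (a rise of 1.42, adjusted p = 1.12e-05, unpaired 0.00513). Bambi, a decoy receptor of TGF-beta signals, read 433 and 356 with delFG1, against 164 and 153 with the empty vector (a rise of 1.30, adjusted p = 8.11e-05, unpaired 0.0298). Cd28, a costimulatory receptor of T cells, read 483 and 532 with delFG1, against 177 and 254 with the empty vector (a rise of 1.26, adjusted p = 0.000237, unpaired 0.0318), while the T cell receptor chain Cd3e lay between percentiles 39.4 and 42.8 on the 4 arrays. Ugt8a, which makes galactosylceramide, and Glyat, which conjugates glycine, rose by 1.34 and 1.34, and Thbs4, a matrix protein, by 1.11, each of them passing in both fits. The fucosyltransferase Fut8, the F-BAR protein Fnbp1l and the cyclin family member Ccno rose by 0.95, 0.98 and 0.98.

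**Figure D3:**
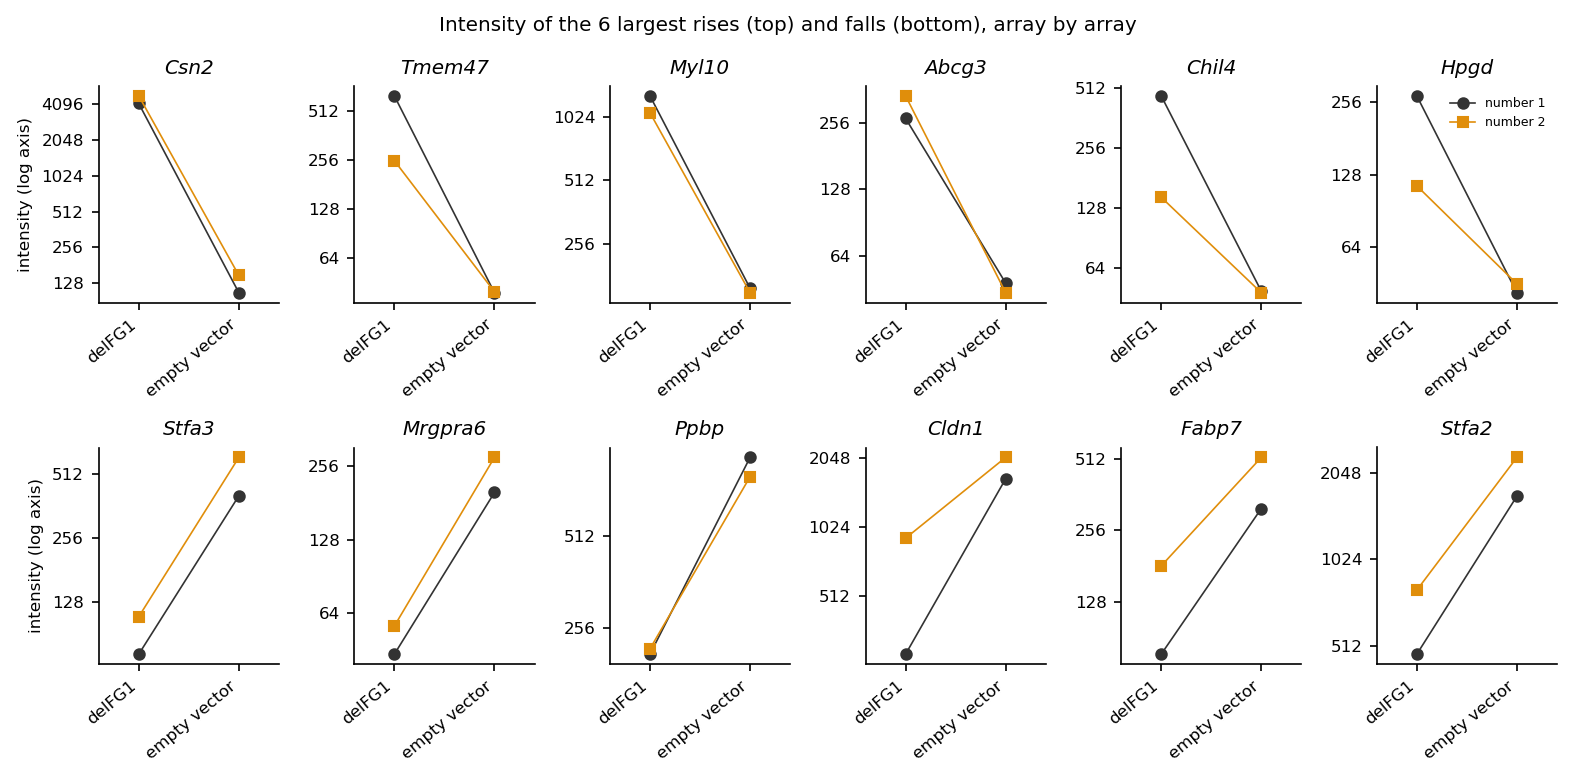
Intensity (log axis) on the delFG1 arrays (left) and the empty vector arrays (right) for the 6 largest rises (top) and the 6 largest falls (bottom), with lines joining arrays of the same number (circles 1, squares 2). Csn2 runs at 4174 and 4839 with delFG1 against 106 and 149 with the empty vector, and Stfa3 at 72.6 and 109 with delFG1 against 404 and 613 with the empty vector.

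Stefin, receptor and chemokine genes had the largest falls. Stfa3, an inhibitor of cysteine proteases, read 72.6 and 109 with delFG1, against 404 and 613 with the empty vector, a difference of -2.47 ± 0.15, or 5.54-fold lower (adjusted p = 2.33e-05, unpaired 0.0318). Mrgpra6, a Mas-related receptor, read 43.6 and 56.8 with delFG1, against 200.02 and 278 with the empty vector, a difference of -2.22 ± 0.15 (adjusted p = 3.1e-05, unpaired 0.0806). Stfa2 read 478 and 800.4 with delFG1, against 1703 and 2325 with the empty vector, a difference of -1.68 ± 0.09 (adjusted p = 1.12e-05, unpaired 0.138). The groups were well apart for all 3, and the arrays numbered 2 were the brighter in both groups. Copies of the stefin A genes are close in sequence, and signal may be shared between them. Ppbp, the precursor of a platelet chemokine, read 209.7 and 218 with delFG1, against 924 and 799 with the empty vector, a difference of -1.9998 ± 0.14 (adjusted p = 3.1e-05, unpaired 0.0187).

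Ppbp had the largest fall among the genes called lower in both fits after Stfa3. Its RefSeq promoter window is shown with the 1 match to the HOX-PBX letters TGATTNAT, here read on the opposite strand, in capitals.
Ppbp, chr5:90768268-90768567, plus strand: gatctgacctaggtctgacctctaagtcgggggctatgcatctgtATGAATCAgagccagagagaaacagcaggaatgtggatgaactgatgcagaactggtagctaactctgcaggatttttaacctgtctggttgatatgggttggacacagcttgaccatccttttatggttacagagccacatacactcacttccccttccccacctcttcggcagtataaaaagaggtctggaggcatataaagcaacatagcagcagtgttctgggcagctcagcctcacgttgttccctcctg
The match lies 205 to 198 bases before the start. Windows with such a match made up 3.22% of all windows and 2.57% of those of tested genes. They made up 2.90% of those of genes that fell and 2.79% of those of genes that rose. None of the windows of Hoxa5, Hoxa6, Hoxa7 or Csn2 holds one, and that of Csn1s1, which rose, holds 1. The MEIS letters TGACAG stood in 18.5% of windows of genes that fell and 13.4% of those of genes that rose (18.4% of tested genes, 19.2% of all). For the CEBP letters TTGCNNAA the shares were 12.7% and 10.6% (9.76% of tested genes, 10.8% of all), and for the PU.1 letters GAGGAAGT 5.81% and 5.57% (2.78% of tested genes, 3.20% of all). Both strands were searched, and the shares are descriptions with no test.

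Further large falls touched lipid handling, arginine metabolism and cell contact. Cldn1, a tight junction protein, read 286 and 916 with delFG1, against 1662 and 2058 with the empty vector, a difference of -1.85 ± 0.26 (adjusted p = 0.00157, unpaired 0.436), with a difference of -2.53 in the pair numbered 1 and -1.17 in the pair numbered 2. Fabp7, a fatty acid-binding protein, read 77.0 and 181 with delFG1, against 316 and 518 with the empty vector, a difference of -1.77 ± 0.15 (adjusted p = 0.000122, unpaired 0.225). Arg2, the mitochondrial arginase, read 173 and 412 with delFG1, against 532 and 1198 with the empty vector, a difference of -1.57 ± 0.11 (adjusted p = 3.1e-05, unpaired 0.397). For Arg2 the arrays numbered 2 were over 2-fold brighter in both groups, and the difference was close to even in both pairs (-1.61 and -1.54). Differences of -1.53, -1.48, -1.62, -1.48 and -1.43 were found for Lipf, an acid lipase, Pla2g7, which cleaves platelet-activating factor, Siglece, an inhibitory receptor for sialic acid, Kcnn3, a calcium-activated potassium channel, and Bhlhe41, a transcriptional repressor, all of them falls. None of these 5 passed in the unpaired fit. Of the 15 largest falls 2 did so, Stfa3 and Ppbp. The 15 falls too were picked among the calls on these same arrays. Other genes called lower in both fits, chosen after their values were seen, were Anpep, a surface aminopeptidase (a difference of -1.07), Myof, a membrane repair protein (a difference of -1.03), the cation channel Trpm2 (a difference of -1.004) and the sialyltransferase St3gal5 (a difference of -0.90).

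Neutrophil genes fell more often than they rose. Of 28 measured granule and maturation genes 14 fell and 3 rose, with a median difference of -0.28. Over all genes 4.36% fell and 1.83% rose. The genes that rose were Elane, Prtn3 and Ms4a3, made at the promyelocyte stage; Elane read 9459.9 and 9873 with delFG1, against 8418 and 8556 with the empty vector (a rise of 0.19, adjusted p = 0.0292, unpaired 0.332). Mpo, of the same primary granules, read 8798 and 8218 with delFG1, against 8969 and 7603 with the empty vector, a difference of 0.04 (adjusted p = 0.744), and Ctsg differed by 0.18 (adjusted p = 0.0629). The rises were small, on bright probe sets, and none of the list's rises was called without either delFG1 array (0 of 28).

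Among the falls of the list, Mmp8, the neutrophil collagenase, read 1158 and 2208 with delFG1, against 2749.6 and 5614 with the empty vector, a difference of -1.30 ± 0.13 (adjusted p = 0.000265, unpaired 0.297). Olfm4, of a subset of specific granules, read 546 and 1181 with delFG1, against 1608 and 2385 with the empty vector, a difference of -1.28 ± 0.12 (adjusted p = 0.000159, unpaired 0.386). Cxcr2, the receptor that draws neutrophils out of the marrow, read 282 and 606 with delFG1, against 753 and 1216 with the empty vector, a difference of -1.21 ± 0.12 (adjusted p = 0.000265, unpaired 0.336). In each the delFG1 arrays lay below both empty vector arrays. Wfdc21 fell by 0.79. Chil3, a chitinase-like protein of neutrophils and macrophages, fell by 1.63 with 679.8 and 2186 with delFG1, against 3021 and 4693 with the empty vector (-2.11 without the empty vector array 2 and -1.14 without the empty vector array 1). Itgb2l, Camp, Mmp9 and S100a8 differed by -0.30, -0.27, -0.38 and -0.14 and did not pass. The same list moved with the array number: 21 of the 28 genes were higher and 1 lower on arrays numbered 2 than on those numbered 1, where 6.78% and 4.44% of all genes were. The median difference from the empty vector was -0.39 in the pair numbered 1 and -0.20 in the pair numbered 2, and 1 of the falls, Stfa3, was called without pairing. Between 9 and 17 members fell when 1 array was left out, with the lowest count without the delFG1 array 1. In bulk RNA of this kind, fewer cells of a type and less RNA per cell cannot be told apart.

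Monocyte and macrophage genes also fell more often than they rose. Of 30 measured members 17 fell (56.7%) and 2 rose (6.67%), against 4.36% and 1.83% of all genes. The median difference was -0.42, and 22 members were lower in both pairs, as were 5050 of all 19938 genes. Msr1, a scavenger receptor, read 523 and 873 with delFG1, against 1213 and 1766 with the empty vector, a difference of -1.11 ± 0.08 (adjusted p = 3.1e-05, unpaired 0.271). Mrc1, the mannose receptor, read 822 and 1285 with delFG1, against 1923 and 2269.8 with the empty vector, a difference of -1.02 ± 0.11 (adjusted p = 0.000383, unpaired 0.307). Both groups were well apart, with the arrays numbered 2 the brighter in each. Mpeg1, a pore-forming protein of phagocytes, fell by 0.83 (adjusted p = 7.67e-05, unpaired 0.247), and Cd68, a lysosomal glycoprotein, fell by 0.62 (adjusted p = 0.00012, unpaired 0.328). Adgre1, the F4/80 antigen, fell by 0.47 with 1608 and 2079 with delFG1, against 2139 and 2985 with the empty vector, a call that was lost without the delFG1 array 1. Gpnmb and Fcgr3 differed by -0.22 and -0.25 and did not pass. The members that rose were Ccr2, the chemokine receptor of inflammatory monocytes (a rise of 0.87), and F13a1, a coagulation factor subunit (a rise of 0.44), both named after their values were seen. On arrays numbered 2, 17 of the 30 were higher and 0 lower than on arrays numbered 1, where 6.78% and 4.44% of all genes were. No member was called in the unpaired fit, where 0.135% of all genes were. The count of falls was 11 without the delFG1 array 2 and between 13 and 21 without each of the other arrays. The count of rises was 0 without the delFG1 array 1 and 1 without the empty vector array 1.

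Lysosomal genes gave falls and no rise, and some of them belong to the macrophage list as well. Of 25 measured hydrolases and membrane proteins 12 fell and 0 rose (48% lower, against 4.36% of all genes, with a median of -0.29). Ctsk, a cysteine cathepsin that degrades collagen, read 115 and 156 with delFG1, against 253 and 380.1 with the empty vector, a difference of -1.20 ± 0.10 (adjusted p = 0.0001, unpaired 0.176). Slc15a3, a peptide and histidine transporter of the lysosome, read 437 and 468 with delFG1, against 838 and 973 with the empty vector, a difference of -0.995 ± 0.10 (adjusted p = 0.000233, unpaired 0.0297), and was the 1 member called in both fits. The cathepsins Ctss, Ctsb and Ctsd fell, with differences of -0.76, -0.47 and -0.37, and Lipa, the lysosomal acid lipase, fell by 0.58. Ctsa and Ctsl differed by -0.17 and -0.37 and did not pass. Over all genes, 6.78% were higher and 4.44% lower on arrays numbered 2 than on those numbered 1. Here too 13 of the 25 were higher and 0 lower on arrays numbered 2, and 8 to 13 members fell when 1 array was left out, with the lowest count without the delFG1 array 1.

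Genes of mast cells, basophils and eosinophils fell without any rise. In the mast cell and basophil list 11 of 22 measured members fell (50%, median -0.38). The eosinophil list had 5 of 8 lower (62.5%, median -0.53), and 4.36% of all genes were lower. Fcer1a, the IgE-binding chain of the high-affinity receptor, read 109.5 and 128 with delFG1, against 217 and 325 with the empty vector, a difference of -1.16 ± 0.12 (adjusted p = 0.000358, unpaired 0.174). Gzmb, a granzyme, fell by 0.94, and Hpgds, which makes prostaglandin D, fell by 0.78. Hdc, which makes histamine, fell by 0.61, and Cpa3, the mast cell carboxypeptidase, fell by 0.52. The difference in Ms4a2, another chain of the IgE receptor, was 0.25 and did not pass, and Slc18a2 and Prss34 differed by 0.44 and -0.31, so the list did not move as one. Mcpt8 fell by 0.42, a call lost without the delFG1 array 1. The count of falls in the mast cell and basophil list was 7 without either delFG1 array or the empty vector array 1 and 14 without the empty vector array 2. On arrays numbered 2, 9 of its 22 members were higher and 1 lower, where 6.78% and 4.44% of all genes were.

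Ear6, an eosinophil ribonuclease, read 582 and 1417 with delFG1, against 1162 and 2914 with the empty vector. The groups overlapped because arrays numbered 2 were brighter, and within the pairs the fall was even, at -0.996 and -1.04 (adjusted p = 3.1e-05, unpaired 0.655). The granule proteins Prg2 and Epx fell with overlapping groups in the same way, with differences of -0.68 and -0.52. Prg3 fell by 0.55 and Alox15, a lipoxygenase, fell by 0.81, and these calls were lost without the delFG1 array 2 or the empty vector array 2, with that of Prg3 lost without the delFG1 array 1 too. The eosinophil receptors Ccr3 and Il5ra were dim, with differences of -0.07 and -0.08 that did not pass. Over all genes, 6.78% were higher and 4.44% lower on arrays numbered 2. Of the 8 measured members 5 were higher on arrays numbered 2 and 0 lower, and 3 fell without the delFG1 array 2 or the empty vector array 2.

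Megakaryocyte genes gave falls and no rise. Of 13 measured members 7 fell and 0 rose (53.8% lower, against 4.36% of all genes, with a median of -0.41). On arrays numbered 2, 0 members were higher and 2 lower, where 6.78% and 4.44% of all genes were. Besides Ppbp, the falls included Vwf, the von Willebrand factor, which read 144 and 151 with delFG1, against 234 and 263 with the empty vector (a difference of -0.74 ± 0.10, adjusted p = 0.00122, unpaired 0.0806). Pf4, platelet factor 4, fell by 0.66 with 554 and 471 with delFG1, against 772 and 848 with the empty vector (adjusted p = 0.00834, unpaired 0.243). Itga2b, the integrin chain CD41, fell by 0.55 (adjusted p = 0.00466, unpaired 0.174), and the matrix protein Thbs1 fell by 0.41 (adjusted p = 0.00229, unpaired 0.262). In all of these both delFG1 arrays were lower than both empty vector arrays. Gp9, a subunit of the platelet receptor for von Willebrand factor, differed by 0.31 and Rab27b by -0.49, and neither passed. The call of Pf4 was lost without either delFG1 array, that of Itga2b without the delFG1 array 1 and that of Clec1b, a platelet lectin receptor, without any 1 of the 4 arrays. The count of falls was 3 without the delFG1 array 1 and 4 without the delFG1 array 2. Among 15 measured erythroid genes 2 fell (13.3%) and 1 rose (6.67%), against 4.36% and 1.83% of all genes. Rhag, an ammonium channel of the red cell membrane, read 41.6 and 50.3 with delFG1, against 88.2 and 87.0 with the empty vector (a difference of -0.92 ± 0.11, adjusted p = 0.000551, unpaired 0.0318), Aqp1 fell by 0.51, and Car2, a carbonic anhydrase, read 1254 and 1022 with delFG1, against 734 and 612 with the empty vector (a rise of 0.75 ± 0.09, adjusted p = 0.000585, unpaired 0.224). The call of Aqp1 was lost without either delFG1 array or the empty vector array 2.

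Growth factor and cytokine receptors fell more often than they rose, with 7 falls (30.4%) and 2 rises (8.70%) among 23 measured. Over all genes 4.36% fell and 1.83% rose, so falls outnumbered rises there too. Il7r, the receptor chain for interleukin 7, read 347 and 539 with delFG1, against 730.2 and 1106 with the empty vector, a difference of -1.05 ± 0.12 (adjusted p = 0.000666, unpaired 0.272). Csf2rb2, a beta chain for interleukin 3, Il6st, the signal chain shared by the interleukin 6 family, Il10ra and Tnfrsf1b fell as well, with differences of -0.47, -0.45, -0.50 and -0.35. Csf1r, which macrophages need for growth, fell by 0.49 with 950.4 and 908 with delFG1, against 1168 and 1452 with the empty vector (adjusted p = 0.0352, unpaired 0.347). Ifngr1 rose by 0.31, and Il2ra, named after its values were seen, by 1.03. The beta chain Csf2rb and the alpha chain Csf2ra differed by -0.19 and -0.23 and did not pass. Il7r kept its call with each array left out, and those of Csf2rb2, Il6st, Il10ra, Tnfrsf1b, Csf1r and Ifngr1 were each lost without at least 1 array. The count of rises was 0 without either delFG1 array, so that of Il2ra was lost there too, and 1 without the empty vector array 1. The count of falls was 3 without the delFG1 array 1 and 2 without the delFG1 array 2.

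Myeloid transcription factors gave 2 rises (8%) and 4 falls (16%) among 25. Over all genes 1.83% rose and 4.36% fell, so falls outnumbered rises there too. Gfi1, a repressor needed for granulocyte development, read 2029.9 and 2244 with delFG1, against 1200.2 and 1075 with the empty vector, a rise of 0.91 ± 0.12 (adjusted p = 0.00137, unpaired 0.0806). Zeb2 read 733 and 693 with delFG1, against 1173 and 1064 with the empty vector, a difference of -0.65 ± 0.10 (adjusted p = 0.00229, unpaired 0.0886). These were the largest changes of the list, with opposite signs, and kept their calls with each array left out. Egr2, Ets2 and Gata2 fell, with differences of -0.63, -0.46 and -0.35, and Tfec rose by 0.22. Each of these 4 calls was lost without either delFG1 array. Gata1 and Ikzf1 differed by -0.36 and -0.35 and did not pass, and the master regulators Spi1, Cebpa and Irf8 differed by -0.17, 0.11 and 0.04. Without the empty vector array 2 the count of falls was 9.

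Inflammatory genes fell in part. Of 37 measured cytokines, chemokines and their receptors 10 fell (27.0%) and 3 rose (8.11%), against 4.36% and 1.83% of all genes. Il6, a proinflammatory cytokine, read 88.4 and 164 with delFG1, against 285 and 419 with the empty vector, a difference of -1.51 ± 0.11 (adjusted p = 5.65e-05, unpaired 0.174). Acod1, which makes itaconate in activated macrophages, read 341 and 416 with delFG1, against 1016 and 1361 with the empty vector, a difference of -1.64 ± 0.29 (adjusted p = 0.00668, unpaired 0.279). Cxcl2, a neutrophil chemokine, read 772 and 703 with delFG1, against 1257 and 1777 with the empty vector, a difference of -1.02 ± 0.15 (adjusted p = 0.00236, unpaired 0.109). The delFG1 arrays lay below the empty vector arrays for all 3. Ccl6 fell by 0.55 and the chemokine receptor Ccr1 fell by 0.70. Against this direction, Ccl17, a ligand of Ccr4, read 1059 and 489 with delFG1, against 478 and 288 with the empty vector, a rise of 0.95 ± 0.12 (adjusted p = 0.000773, unpaired 0.583). The median difference of the list was 0.03 in the pair numbered 1 and -0.29 in the pair numbered 2. Il1b differed by -0.58 and Ccl3 by -0.21, and neither passed. On arrays numbered 2, 6.78% of all genes were higher and 4.44% lower. Without either delFG1 array or the empty vector array 1 the count of rises was 1. The count of falls was 15 without the empty vector array 1 and 6 without the delFG1 array 2, and 10 of the 37 genes were higher and 2 lower on arrays numbered 2.

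Enzymes of prostaglandin and leukotriene metabolism moved both ways. Against the rise of Hpgd described above, 6 of 20 measured members fell (30%, where 4.36% of all genes fell). Hpgds and Alox15 were among them, together with Ltc4s, which makes leukotriene C (a difference of -0.76, adjusted p = 0.00598, unpaired 0.489), Ptges (a difference of -0.60), the prostaglandin E receptor Ptger2 (a difference of -0.70) and Alox5ap (a difference of -0.25). Of these falls that of Hpgds kept its call with each array left out, and the count was 2 without the delFG1 array 1. Alox5 and Pla2g4a differed by -0.17 and 0.26 and did not pass.

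Lymphoid, dendritic and stromal genes gave 1 to 3 calls in each list, at shares to be read against the 1.83% of all genes that rose and the 4.36% that fell. Among 16 B cell genes 1 rose (6.25%) and 2 fell (12.5%): Cd79b rose by 0.37 and Cd22 fell by 0.66 beside Il7r, and Cd22 kept its call with each array left out while Cd79b was called in 1 of the 4 such fits. Among 20 T and NK cell genes Cd2 alone passed, with a difference of -0.35 that was lost without the delFG1 array 1 or the empty vector array 1. Among 18 genes of dendritic cells and antigen presentation H2-DMa, a peptide exchange factor, rose by 0.57 with 1408 and 1159.5 with delFG1, against 841 and 878 with the empty vector (adjusted p = 0.00294, unpaired 0.172; lost without the delFG1 array 1). Among 16 stromal and endothelial genes the passes were the rise of Vcam1 and the fall of Thbs1 (6.25% each way), and Sparc and Pdgfra differed by 0.14 and -0.17. Interferon-stimulated genes gave 1 rise (Ifih1, 0.45) and 2 falls (Oas2, -0.52; Irf7, -0.53) among 25, each lost without either delFG1 array.

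Among adhesion G protein-coupled receptors, Adgrl2, a latrophilin, read 516 and 669 with delFG1, against 1158 and 1418 with the empty vector, a difference of -1.12 ± 0.08 (adjusted p = 3.1e-05, unpaired 0.0836). The array holds 8 probe sets for Adgrl2, and 7 of them were called lower, by differences from -1.21 to -0.90, while the eighth differed by -0.29 (adjusted p = 0.102). Another of these probe sets, with a difference of -1.21, passed in the unpaired fit. Adgrg6 read 98.3 and 97.8 with delFG1, against 62.1 and 61.9 with the empty vector, a rise of 0.65 (adjusted p = 0.00553, unpaired 0.0884), which was lost without the delFG1 array 1. With the fall of Adgre1, 1 rose (5.56%) and 2 fell (11.1%) of 18 measured, against 1.83% and 4.36% of all genes.

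Of 20 measured cholesterol synthesis and uptake genes 3 rose and 0 fell (15% higher, against 1.83% of all genes, with a median of 0.15): Tm7sf2, a sterol reductase, read 422 and 449 with delFG1, against 239 and 308 with the empty vector (a rise of 0.68, adjusted p = 0.0243, unpaired 0.236), and Lss and Insig1 rose by 0.34 and 0.34. All 3 calls were lost without either delFG1 array or the empty vector array 1, where no member passed (0 of 20), and in the unpaired fit. Without the empty vector array 2 the count of rises was 6. Fdps and Sc5d differed by 0.31 and 0.32 and did not pass. Genes of amino acid supply and the unfolded protein response gave 3 rises (12.5%) and 2 falls (8.33%) among 24. The shares of all genes were 1.83% and 4.36%. Asns, asparagine synthetase, read 3491 and 3865 with delFG1, against 2648 and 2671 with the empty vector (a rise of 0.47, adjusted p = 0.0237, unpaired 0.25), Psph rose by 0.56 and Xbp1 by 0.24. Slc7a11, the cystine transporter, read 1381 and 1837 with delFG1, against 2952 and 2972 with the empty vector (a difference of -0.89 ± 0.14, adjusted p = 0.00336, unpaired 0.19), and its partner Slc3a2 fell by 0.21. Slc7a11 alone of these 5 kept its call with each array left out.

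Proliferation genes were called at shares near those of all genes, of which 4.36% fell and 1.83% rose. Of 31 measured cell cycle genes 1 fell (3.23%) and 0 rose, and the median difference was 0.03. The gene that fell was Ccnd1, cyclin D1, with 324 and 337 with delFG1, against 471 and 589 with the empty vector (a difference of -0.67 ± 0.11, adjusted p = 0.00378, unpaired 0.114). Without the empty vector array 2 the count of falls was 6. E2f2 differed by -0.43 and did not pass. Of 19 p53 targets and cell cycle inhibitors 1 fell (5.26%), Perp, a desmosome protein (a difference of -0.81, adjusted p = 0.000707, unpaired 0.424). Mdm2 and Sesn1 differed by -0.27 and 0.39.

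Among 28 genes of MLL and its associated chromatin complexes, named in the title of the series, 1 rose (3.57%) and 0 fell. Over all genes 1.83% rose and 4.36% fell. Dpy30, a core subunit of the MLL methyltransferase complexes, read 1785 and 1780.5 with delFG1, against 1529 and 1437 with the empty vector (a rise of 0.27, adjusted p = 0.037, unpaired 0.357), and its call was lost without either delFG1 array or the empty vector array 1. Kmt2a, which encodes MLL, differed by -0.10 and its partner Men1 by 0.14; the coactivator Ep300 differed by -0.28 and Aff4 by -0.24, and none passed. Without the empty vector array 2 the count of falls was 4. Of 21 nucleoporins and export factors 1 rose, Nup43 (a rise of 0.41, adjusted p = 0.0244, unpaired 0.444), lost without either delFG1 array or the empty vector array 1. In that list the share that rose was 4.76% and the median was 0.14. On arrays numbered 2, 13 members were lower, where 4.44% of all genes were. Nup133 and Nup85 differed by 0.30 and 0.24 and did not pass.

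Immediate-early genes and feedback regulators of MAPK signalling moved with the array pair. Of 28 measured members 4 fell (14.3%) and 1 rose (3.57%), against 4.36% and 1.83% of all genes. The median difference was 0.20 in the pair numbered 1 and -0.36 in the pair numbered 2. Fosl2, Egr2, Nr4a1 and Klf6, transcription factors induced within minutes of a signal, fell, with differences of -0.66, -0.63, -0.53 and -0.50, and Spry1, an inhibitor of receptor signalling, rose by 0.61. Without the delFG1 array 2 no member fell (0 of 28), and without the empty vector array 1 there were 6 falls. The rise of Spry1 was lost without either delFG1 array or the empty vector array 1, and without the empty vector array 2 there were 4 rises. Glycolysis and hypoxia genes gave 1 rise (Vegfa, 0.45) and 1 fall (Slc2a1, -0.26) among 19, which is 5.26% each way. Both calls were lost without either delFG1 array. The plot of all 32 lists puts these counts side by side. The lists share some genes: 151 different members were called in all, and 9 of them in the unpaired fit. With 1 array left out 80 were called without the delFG1 array 1 and 89 without the delFG1 array 2.

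**Figure D4:**
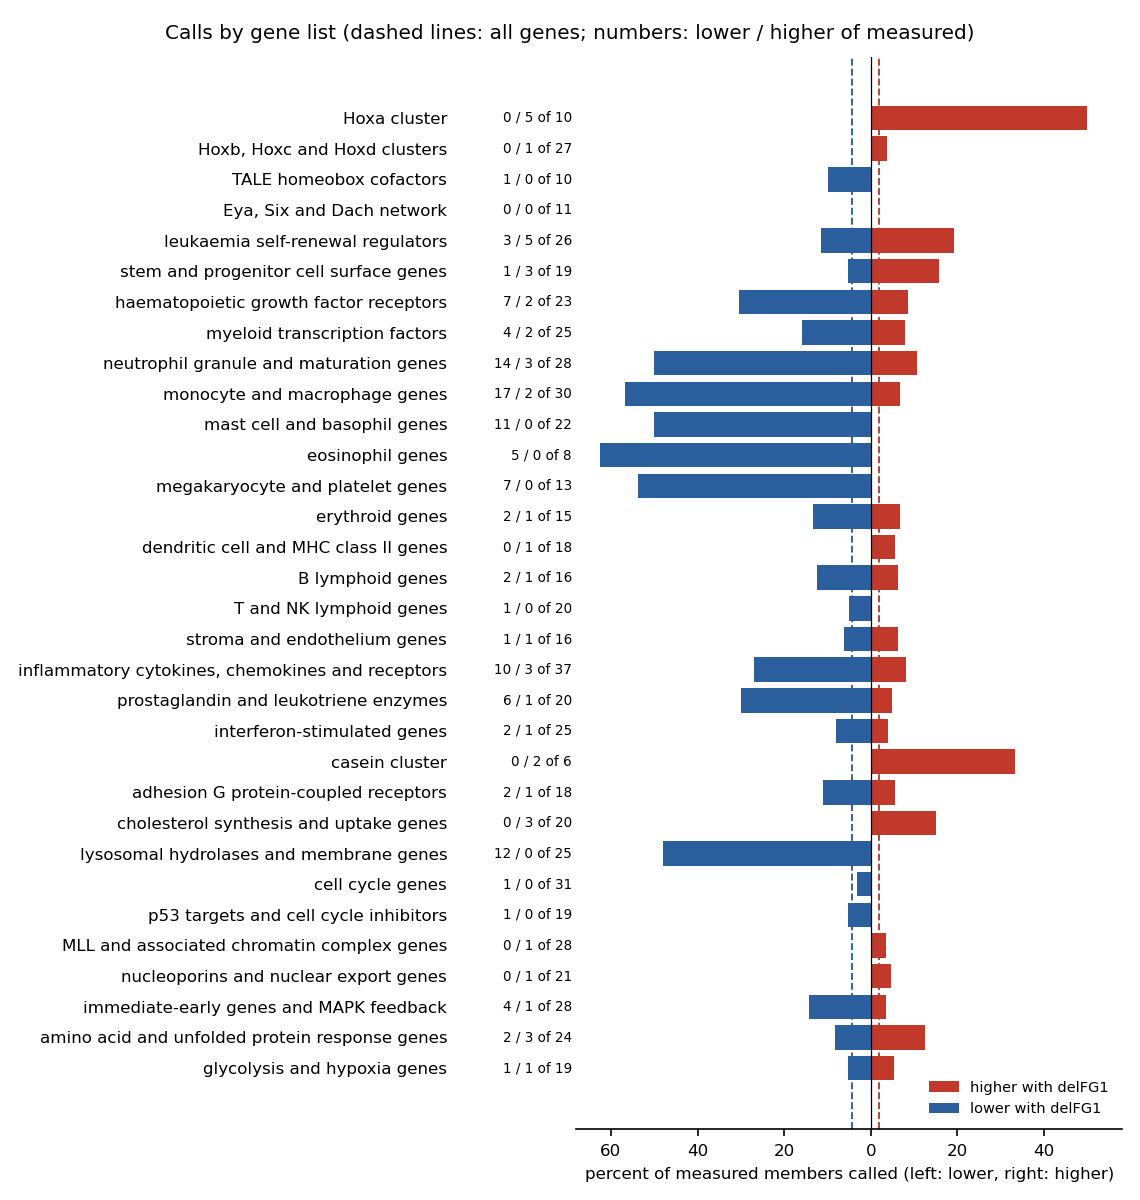
Percent of measured members called lower (left, blue) and higher (right, red) with delFG1 than with the empty vector, for each of 32 gene lists, with the counts beside the names and dashed lines at the shares of all genes (4.36% lower, 1.83% higher). The Hoxa cluster has 5 of 10 genes higher, and the eosinophil (5 of 8), monocyte (17 of 30), megakaryocyte (7 of 13), neutrophil (14 of 28) and mast cell (11 of 22) lists have the largest shares lower.

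Where delFG1 differed from the full-length fusion was tested directly. With an adjusted p under 0.05 in limma, delFG1 had 5 of 21789 probe sets above and 12 below the full-length fusion (0.078% in all). In the unpaired fit 0 were higher and 2 lower. At an unadjusted p under 0.05 there were 886 probe sets in the paired fit and 451 in the unpaired. Both are under the share of 0.05 that this threshold passes where no gene differs, so they are not read as further differences. Eya1 read 68.7 and 73.4 with delFG1, against 532 and 503 with the full-length fusion, a difference of -2.85 ± 0.12 (adjusted p = 1.89e-06, unpaired 0.000196). Pbx3 read 431 and 447 with delFG1, against 1588 and 1209.8 with the full-length fusion, a difference of -1.66 ± 0.11 (adjusted p = 0.000119, unpaired 0.0104). These 2 genes, which were not called between delFG1 and the empty vector, were the 2 probe sets called in both fits. Hoxa9 read 337 and 243 with delFG1, against 678 and 689 with the full-length fusion, a difference of -1.25 ± 0.13 (adjusted p = 0.00532, unpaired 0.311). Calcrl, Meis1 and Mef2c were lower with delFG1, with differences of -1.07, -0.82 and -0.79 (adjusted p = 0.00563, 0.0143 and 0.0216, unpaired 0.0848, 1 and 1), and so were Igfbp7, Rasgrp3 and Csn1s1, with differences of -0.71, -0.68 and -0.65.

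Among the other Hoxa genes the differences from the full-length fusion did not pass. Hoxa5 read 125 and 109 with delFG1, against 193 and 226 with the full-length fusion, a difference of -0.83 ± 0.13 (adjusted p = 0.0502). Hoxa6 and Hoxa7 differed by -0.83 and -0.82 (adjusted p = 0.199 and 0.0664). All 3 genes were lower on both delFG1 arrays than on both full-length arrays, and 1 gene of the cluster, Hoxa9, passed. As said above, which transcript the Hoxa9 probe set reads is not known here.

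In the other direction, 5 genes were higher with delFG1. Tmem47 read 635 and 255 with delFG1, against 55.5 and 48.5 with the full-length fusion, a difference of 2.93 ± 0.30 (adjusted p = 0.00538, unpaired 0.425). Csn2 read 4174 and 4839 with delFG1, against 964 and 2141 with the full-length fusion, a difference of 1.64 ± 0.21 (adjusted p = 0.0197, unpaired 0.803). Tox read 622 and 519 with delFG1, against 271 and 292 with the full-length fusion, a difference of 1.01 ± 0.12 (adjusted p = 0.0099, unpaired 0.311). The delFG1 arrays lay above the full-length arrays for all 3 genes. Glyat and Thbs4 were higher by 1.12 and 0.93 (adjusted p = 0.00374 and 0.034, unpaired 0.277 and 0.277). With 1 array of these groups left out, the counts ran from 0 (without the full-length array 1) to 25 (without the delFG1 array 2) higher, and from 4 (without the delFG1 array 1) to 15 lower; 3 were higher without the delFG1 array 1, 2 without the full-length array 2, and 5 were lower without either full-length array.

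**Figure D5:**
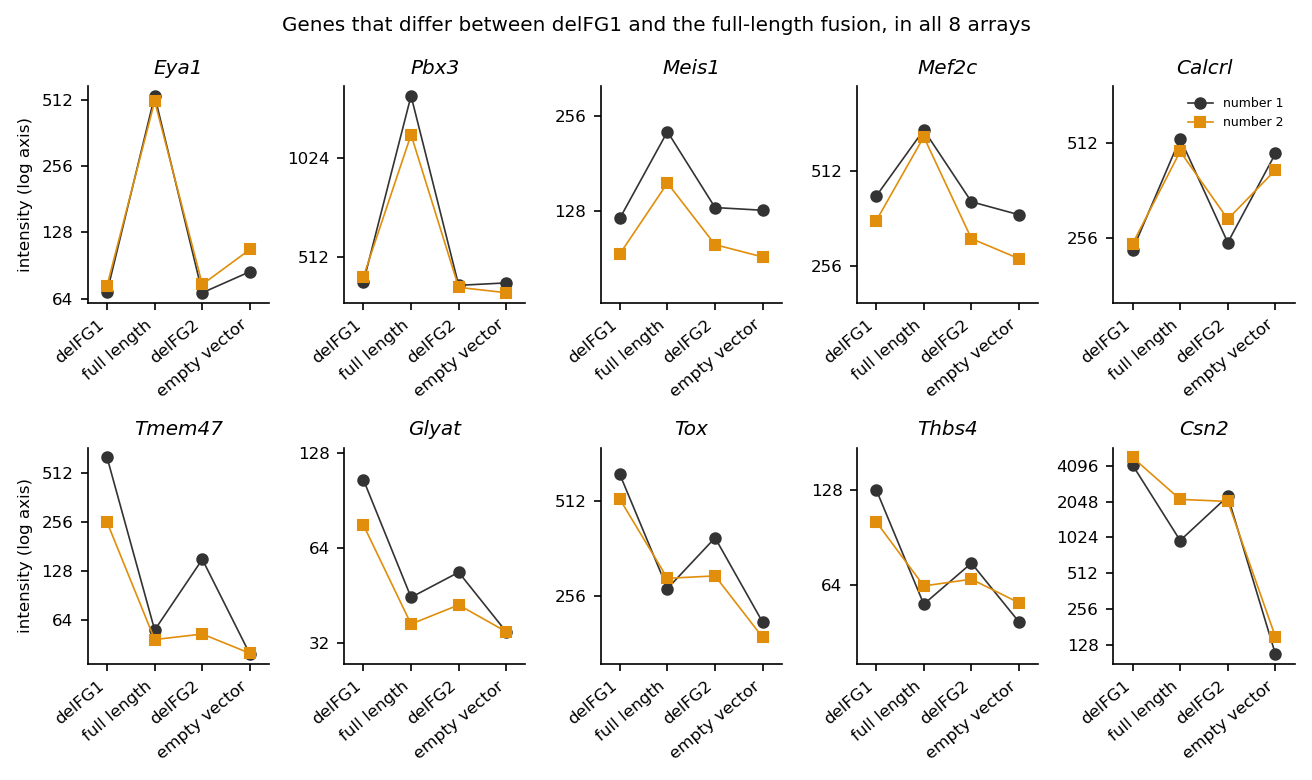
Intensity (log axis) on all 8 arrays, by group from left to right, for 5 genes below (top) and 5 genes above (bottom) the full-length fusion in delFG1 cells. Lines join arrays of the same number. Eya1 lies at 68.7 and 73.4 with delFG1, 532 and 503 with the full-length fusion, and 85.1 and 107 with the empty vector, and Csn2 is highest with delFG1.

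Against delFG2, the other deletion mutant, 29 probe sets were higher and 88 lower with delFG1 (0.537% in all). In the unpaired limma fit 0 were called in either direction, so each of these calls rests on the pairing. At an unadjusted p under 0.05 that fit had 683, again under the share of 0.05 that passes where no gene differs. The genes lower with delFG1 included neutrophil, platelet and inflammatory genes. Ppbp read 209.7 and 218 with delFG1, against 690.1 and 442 with delFG2, a difference of -1.36 ± 0.14 (adjusted p = 0.00404). Il6 read 88.4 and 164 with delFG1, against 218 and 329 with delFG2, a difference of -1.15 ± 0.11 (adjusted p = 0.00404). Cxcr2 read 282 and 606 with delFG1, against 691 and 976 with delFG2, a difference of -0.99 ± 0.12 (adjusted p = 0.00965). The delFG1 arrays were below both delFG2 arrays for Ppbp, Il6 and Cxcr2. Stfa3, Stfa2, Slfn4, a Schlafen family gene, Asprv1, an aspartic protease, and Mmp9, the gelatinase of neutrophil granules, differed by -1.32, -1.11, -1.16, -1.10 and -1.004. Mmp9 was not called against the empty vector, where it differed by -0.38.

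Among the genes higher with delFG1 than with delFG2 were Hoxa genes. Hoxa7 read 331 and 256 with delFG1, against 184 and 146 with delFG2, a difference of 0.82 ± 0.13 (adjusted p = 0.0258). Hoxa5 read 125 and 109 with delFG1, against 75.5 and 63.4 with delFG2, a difference of 0.75 ± 0.13 (adjusted p = 0.0342). Hoxa6 differed by 0.62 (adjusted p = 0.193) and Hoxa9 by 0.34 (adjusted p = 0.467), and neither passed. Tmem47 differed by 2.16, Hpgd by 1.59, Gstt1 by 1.25, Vcam1 by 1.14, the glutathione peroxidase family member Gpx8 by 1.08, Ugt8a by 1.01 and Glyat by 0.89. Each of these differences passed. Csn2 read 4174 and 4839 with delFG1, against 2269.9 and 2058 with delFG2, a difference of 1.06 that did not pass (adjusted p = 0.068). With 1 array left out the counts were 0 higher and 1 lower without the delFG1 array 1, 3 and 5 without the delFG2 array 1, 0 and 3 without the delFG2 array 2, and 40 and 66 without the delFG1 array 2.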

How the data were processed

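Each array has 1 column of linear intensity in the authors' deposited table, over 28853 probe sets. The array model, the background correction and the normalisation behind these values: not given in the sources used here. Per the labels' protocols, RNA was purified with a column kit and its fragmented DNA was biotin-labelled with a whole-transcript kit. The deposited table holds no detection calls, so dim probe sets were kept. Precision is limited by having 2 arrays in each group. Whether those came from separate cultures is not said in the labels, and p-values therefore measure only a spread between samples that may be technical.

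Probe sets were named from the platform annotation: 21789 carried 1 gene symbol and were tested, covering 19938 genes, while 1621 carried several symbols and 5443 none. The Entrez numbers of 21698 were found in the RefSeq table of GRCm38.p6. For the 999 genes with several probe sets, the brightest stands for the gene in counts by gene and in the lists. The deposited intensity was analysed as log2(intensity + 1) with limma 3.58.1 in R 4.3.3 (lmFit, then eBayes with trend), with all 8 arrays, 4 group means and the number in the labels as a block (3 residual and 7.78 prior degrees of freedom). The unpaired fit left the number out (4 residual and 4.62 prior degrees of freedom). Tests were two-sided, with Benjamini-Hochberg adjustment over the 21789 probe sets and a threshold of 0.05. Fits were tested on simulated data.

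The comparison itself sets the numbers as pairs. Their meaning is not stated in the labels. Same-numbered arrays deviated together from their group means for every pair of groups (r across probe sets from 0.401 to 0.640).

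The members compared and the 32 gene lists were chosen with earlier results of these data known, so the counts in lists are descriptions. The text names the 15 largest rises and 15 largest falls whose groups do not overlap, up to 6 called and 2 uncalled members of each list, up to 8 genes each way against the full-length fusion and against delFG2, and a fixed set (Nup98, the Hoxa genes, Pbx3, Meis1, Eya1, Mef2c, Mecom, Mycn, Myc, Cdk6, Flt3, Kit, Cd34, Mpo, Elane, Csf1r and Csn2). Predicted genes, chemosensory receptors and small RNA genes were passed over. These make 211 genes, and any other gene was named after its values were seen. Promoter windows and motif matches are from RefSeq, GRCm38.p6, read with Python 3.11.15 and pandas 2.3.3. Figures were drawn with matplotlib 3.10.9. Alternatives covered the pairing, the arrays in the fit, the pseudocount, the normalisation, dim probe sets, the variance prior, the probe sets tested, and each array left out in turn.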

Additional observations from a re-analysis of the deposited data

Results flagged for a closer look

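Probe sets that could not be tied to 1 gene were outside every comparison above. Tested in the same way with limma over all probe sets of the table, 46 of the 7064 such probe sets were higher with delFG1 than with the empty vector (0.651%) and 101 were lower (1.43%). The largest rise had no gene symbol: probe set 10450431 read 1309 and 2126 with delFG1, against 212 and 225 with the empty vector, a difference of 2.93 (adjusted p = 0.000106). The largest fall, probe set 10448124, also without a symbol, read 310.1 and 827 with delFG1, against 1511 and 2739 with the empty vector, a difference of -2.004 (adjusted p = 0.000321). Among those with several symbols, 1 probe set for the stefin family genes Cstdc6, Cstdc5 and Stfa1 differed by -1.35 (adjusted p = 0.000256), and 1 for the alpha-globin genes Hba-a1 and Hba-a2 by -1.16 (adjusted p = 0.00838). With 2 arrays in each group, no sample was tested as standing apart from its group.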

How the results depend on the processing

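Without the replicate block, 19 probe sets were called higher and 9 lower against the empty vector, 16 and 6 by at least 2-fold, with 9 list members called, 0 higher and 2 lower against the full-length fusion, and 0 and 0 against delFG2; 117 of the 134 named genes that had been called lost the call. With only the groups compared in the fit, 54 were higher and 67 lower against the full-length fusion and 68 and 190 against delFG2. Quantile normalisation left 19 higher than with delFG2. With the dimmest 25% of probe sets left out, 11 were higher than with the full-length fusion and 134 lower than with delFG2. Without the intensity trend, 269 were higher than with the empty vector, 1 higher and 6 lower against the full-length fusion, and 0 and 2 against delFG2. A robust prior gave 3 higher than with the full-length fusion. Testing all probe sets of the table gave 3 higher than with the full-length fusion, and 8 higher and 47 lower against delFG2. Other counts stayed within 1.5 times under these settings, as did all counts with a pseudocount of 0 or 16, arrays centred on their medians, or the brightest probe set of each gene. The cause of these changes was not tested.

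With 1 array left out, the counts against the empty vector ran from 97 to 950 higher and from 390 to 1322 lower, from 29 to 62 and from 76 to 121 at 2-fold, and from 80 to 183 list members. Against the full-length fusion they ran from 0 to 25 and from 4 to 15, and against delFG2 from 0 to 40 and from 1 to 66. Differences that changed sign were all uncalled: Flt3 (-0.013 to 0.42), Hoxa11 (-0.022 to 0.11), Igfbp7 (-0.096 to 0.14), Il5ra (-0.16 to 0.0017), Kit (-0.30 to 0.18), Meis1 (-0.077 to 0.023), Mpo (-0.031 to 0.12), Nup98 (-0.043 to 0.13), Odam (-0.0050 to 0.056), Pbx3 (-0.027 to 0.20) and Zap70 (-0.028 to 0.32).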
